A study of Bos taurus with 6 samples.

Results

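CpG-dense windows of intermediate methylation are 500-bp stretches of the cattle autosomes that were crowded with CpG dinucleotides and yet were neither unmethylated nor fully methylated. They were chosen on the 6 libraries pooled, as windows with over 30 distinct CpGs, at least 40 reads, under 20 reads per CpG row on average (a row is the cytosine of a CpG on 1 strand) and a methylation level of 35% to 65%. The methylation level was the share of reads that were methylated. In total, 2009 windows met the rule. They were 4.73% of the 42518 autosomal windows that passed every criterion except the level, and 0.0465% of the 4318570 autosomal windows with a CpG (4551536 windows on all sequences). Their level was therefore set by the rule and is given as a description. Treatment, the state of single reads, the neighbouring windows and the positions were not used to choose them. The level was pooled over both groups, however, so a window whose libraries differ widely can reach 35% to 65% through the pooling. The spread between libraries and the share of windows called are thus not independent of the rule.

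The libraries were made by whole-genome bisulfite sequencing of rumen epithelial primary cells (REPC), which grow out of the lining of the rumen and were cultured from 1 Holstein bull calf of 2 weeks that had received milk replacer and no solid feed. There were 3 control libraries and 3 libraries of cells kept for 24 h in medium with 5 mM butyrate, which the microbes of the rumen release from fibre and which inhibits histone deacetylases. All 6 libraries share the calf and the cell preparation, so that p-values measure only the spread between cultures or libraries of 1 animal. Lane 5 of the sequencer carried butyrate replicates 1 and 3, while lane 6 carried all controls and the remaining butyrate library. No expression was measured in these libraries, so the cell type could not be checked against its marker genes here.

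Most cytosines of CpGs in mammalian DNA carry a methyl group, and the main exceptions are CpG islands, the CpG-rich stretches that often hold the start sites of genes and usually stay unmethylated. A level in between can have several forms. One allele can be methylated and the other not, as in the control regions of imprinted genes, where the parental origin of the allele decides. Cells of a culture can also differ from each other, single CpGs within a window can differ, and a window can lie across the border of a methylated and an unmethylated stretch. A bisulfite read comes from 1 strand of 1 molecule, so the states of neighbouring CpGs on it show part of this difference.

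Between 18793438 and 23842285 reads were counted over the CpGs of a library, where a read that covers several CpGs is counted at each. The intermediate windows held 71738 to 101368 of these reads per library, which gave 95% Wilson intervals of ±0.308 to 0.366 percentage points around the level of a library (counting error alone). The median window had 35 distinct CpGs (31 to 87), 211 pooled reads (45 to 1434) and 3.25 reads per CpG row. In a single library its median depth was 30 to 42 reads, and 12 to 45 windows had no read. In total, 1343 windows had at least 10 reads in every library, and 633 had at least 20.

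Intermediate levels were uncommon among CpG-dense windows. Of the 42518 windows, 28355 (66.7%) had a level under 35% and 12154 (28.6%) a level over 65%. The count fell from 22606 windows at 0 to 5% to 284 windows at 45 to 50%, and rose again to 3964 windows at 90 to 95%. The steps of 5 percentage points within the chosen range held 284 to 438 windows, and neither limit coincided with a gap. The neighbouring steps held 344 windows (30 to 35%) and 641 windows (65 to 70%).

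**Figure D1:**
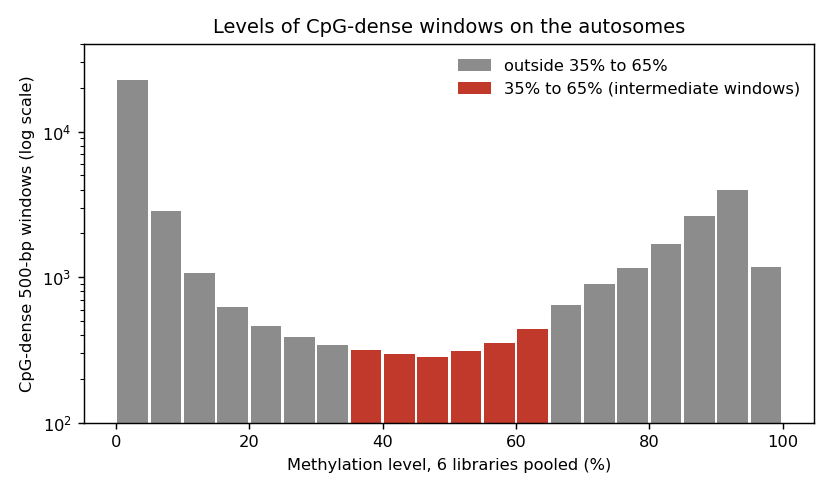
Number of CpG-dense autosomal 500-bp windows (log scale) in steps of 5 percentage points of the methylation level pooled over 6 libraries. The red bars are the 2009 intermediate windows, with 284 to 438 windows per step and the lowest bar at 45 to 50%, between 22606 windows at 0 to 5% and 3964 windows at 90 to 95%.

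At the limits of level and CpG number, the deepest windows just inside and just outside were as follows. On chromosome 22, positions 16873501 to 16874000 (58 CpGs, 547 reads), the level was 35.3% and just inside, and on chromosome 25, positions 26847501 to 26848000 (83 CpGs, 761 reads), it was 34.8% and just outside. At the upper limit, chromosome 2, positions 100639501 to 100640000 (32 CpGs, 1147 reads), had 64.7%, and chromosome 8, positions 56847501 to 56848000 (39 CpGs, 1221 reads), had 65.03%. At the limit of CpG number, chromosome 18, positions 11466501 to 11467000, had 31 CpGs and a level of 64.2%, and chromosome 3, positions 82898501 to 82899000, had 30 CpGs and 62.2%. At the limits of depth, the lowest pooled count of a chosen window was 45 reads and the highest mean depth 19.8 reads per CpG row. Of the windows with over 30 CpGs at any level, 6 had too few reads and 2488 too many reads per row. All coordinates are those of the assembly UMD3.1.1, counted from 1. The genes there were not analysed here.

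The share of intermediate windows fell with the number of CpGs. It was 7.35% of the 14186 dense windows with 31 to 35 CpGs, 5.30% with 36 to 40, 3.21% with 41 to 50 and 1.88% of the 9537 windows with 51 or more. Over the same steps the share under 35% rose from 45.1% to 92.2%, and the share over 65% fell from 47.5% to 5.89%. The intermediate share moved less with depth. It was 5.08% of windows with under 100 pooled reads, 5.50% from 100 to under 200, 4.33% from 200 to under 400 and 3.96% with 400 or more.

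An intermediate level was found again in reads that had not set it. For this, the level and a minimum of 20 reads were taken from the 3 control libraries alone. The CpG number and the reads per CpG row stayed those of all 6 libraries. In this way 2019 windows were chosen, of which 2011 had at least 20 reads in the butyrate libraries. Of these, 1263 (62.8%) had a level of 35% to 65% there. A further 15% had moved under 35% and 22.2% over 65%, but just 2.14% were under 20% and 2.54% over 80%. In the other direction, 1263 of 2010 windows (62.8%) chosen on butyrate were intermediate in control. Of all dense windows read in the butyrate libraries, 4.77% were intermediate. Thus most windows kept their class in the other group of cultures, and those that left it mostly lay close to its limits.

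The deepest windows are given by library, among those chosen for an intermediate level in each library, so that their likeness between libraries is in part set by this choice. Among windows in which every library had at least 20 reads and a level of 25% to 75%, the one with the most reads lay on chromosome 1, positions 5256001 to 5256500, with 39 CpGs and 184 to 321 reads per library. In the order of the replicate numbers, its levels were 70.7, 61.9 and 63.4% in control and 61.1, 62.7 and 67.1% in butyrate. The groups overlapped. On chromosome 23, positions 52340001 to 52340500 (51 CpGs), the levels were 56.7, 50.2 and 43.1% in control and 51.3, 45.6 and 45.5% in butyrate, and the groups also overlapped. On chromosome 3, positions 8109501 to 8110000 (35 CpGs), they were 40.3, 36.9 and 32.2% in control and 37.0, 45.6 and 32.0% in butyrate. This window separated a left neighbour of 70.9% from a right neighbour of 7.65%.

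The other 3 of the 6 deepest windows lay on chromosome 8, positions 78649001 to 78649500 and 24911001 to 24911500, and on chromosome 7, positions 12129501 to 12130000. Their library levels ran from 55.9% to 65.6%, with overlapping groups in each. In all 6 windows the difference between the pooled levels of the groups was between -2.27 and 2.07 percentage points. Some of them had a recurring layout. The spacing of 9 consecutive CpGs in the windows on chromosome 1, on chromosome 8 at 24911001 and on chromosome 7 was also found in CpG-dense windows elsewhere, 13, 20 and 36 windows in all. The second window on chromosome 8 shared its spacing with 1 other window, and those on chromosomes 23 and 3 with none. The 6 windows had 12.7 to 19.3 reads per CpG row, against a median of 3.25. Whether reads of other copies of a repeat were counted in them was not tested.

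A spacing shared with any other dense window was uncommon in the class as a whole. Of the 1850 intermediate windows in which 9 consecutive CpGs could be compared, 83 (4.49%) shared a spacing with another dense window, against 3.57% of the windows under 35% and 4.40% of those over 65%. Counting only spacings that recurred in several windows, the shares were 1.73%, 0.495% and 3.13%. The 83 windows had a median of 424 reads, compared with 207 for the remaining 1926.

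In many windows the libraries spread widely. Of the 1343 windows of at least 10 reads per library, 619 (46.1%) stayed between 25% and 75% in all 6, and 120 (8.94%) stayed between 35% and 65%. With at least 20 reads in every library, 358 of 633 windows (56.6%) stayed between 25% and 75%. A library under 20% and another over 80% were found together in 50 of the 1343 windows and in 10 of the 633. The median SD within groups was 13.3 percentage points, and the median range over the 6 libraries 36.1 points. All 98728 autosomal windows with the same minimum of reads had a median SD of 5.86 points, with no matching of level or of depth above the minimum. Counting error alone is also larger at intermediate levels.

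This spread exceeded that of independent reads. The chi-square of the 3 replicates of a group divided by its degrees of freedom had a median of 2.12 in control and 2.04 in butyrate, where independent reads of equal windows would give a value under 1. It was 0.907 to 0.982 in CpG-dense windows outside the range, 1.27 in control windows of the same level with 16 to 30 CpGs (6424 windows) and 1.03 with 6 to 15 CpGs (2925 windows). A read that covers several CpGs in the same state is counted several times, and dense windows hold more CpGs per read. The part of this in the ratio was not tested.

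Library deviations showed little correlation between nearby windows. Over 52 pairs of adjacent intermediate windows, the deviations of the 6 libraries from their group means had a Pearson r of 0.04 and a Spearman rho of -0.0019 (312 points that share libraries). Over 121 pairs 2 to 10 kb apart, r was 0.01 and rho 0.03. These are descriptions across windows, which are not independent replicates. Counting error at this depth lowers such correlations, so that they cannot show that no deviation was shared.

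Nearby CpGs on the same strand were mostly in the same state. Pairs were CpGs up to 20 bp and up to 8 CpGs apart, each read once in a library. Coverage was checked on directly adjacent CpGs of which the first was read once. Of these, 95.1% of the neighbours within 10 bp and 88.8% of those at 11 to 20 bp were covered in the same library. In another library it was about 42.5% and 42.8%, so that most such adjacent pairs came from 1 read. By replicate number, both CpGs had the same state in 68.9, 69.4 and 69.1% of pairs in control and in 69.9, 69.5 and 69.2% in butyrate. Of all pairs, 36.2% were methylated at both CpGs, 33.1% at neither and 30.7% at 1 of them. When the members of a pair were taken from different libraries, and so from different molecules, 58.2% had the same state. Pairs within a library thus exceeded pairs between libraries by 11.2 points (10.5 to 11.8 over libraries). Where the level of a window differs between libraries, pairs between them also agree less often. The part of this in the excess, here and in the comparisons below, was not tested. The groups overlapped, and butyrate minus control was 0.427 points (69.1% ± 0.255 and 69.5% ± 0.320, SD, n = 3 each; two-sided exact permutation test, p = 0.2).

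Agreement at longer distances was higher than in sparser windows of the same level, while at the shortest the classes lay close together (not tested). At 1 to 10 bp it was 70.7% in control and 71.3% in butyrate, against 71.2% and 71.1% in windows of 35% to 65% with 6 to 15 CpGs and 70.5% and 70.4% with 16 to 30 CpGs. At 51 to 100 bp, a directly adjacent CpG was covered in the same library in 61.7% of 2847 cases, against 42.3% in another library. The 189038 pairs compared at this distance also took CpGs further along, which this coverage does not describe. Many pairs at this distance may thus not lie on 1 read. There, 58.6% of pairs in intermediate windows had the same state (58.1 to 59.2% over libraries), against 54.6% (54.5 to 54.8%) in windows of 35% to 65% with 16 to 30 CpGs and 50.9% (50.6 to 51.1%) with 6 to 15 CpGs. The differences of 4.05 ± 0.419 and 7.72 ± 0.525 points (SD over 6 libraries) had the same sign in 6 of 6 libraries (two-sided exact sign-flip permutation test over libraries, p = 0.0313 each, the smallest that 6 libraries allow). The sets of windows were fixed, so that this p-value measures the spread between libraries and not that between windows. Pairs taken between libraries agreed in 53.6, 52.2 and 49.3%, so that the excess was 5.00, 2.44 and 1.62 points. The spread between libraries was also larger in the intermediate windows, as given above, and its part in these values was not tested.

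Stretches of neighbouring CpGs were often uniform. In 96906 stretches of 4 neighbouring CpGs within 60 bp, each read once in a library, 20.3% had no methylated CpG and 22.2% had 4, while 19% had 2. In 4623 stretches whose 4 CpGs were read in 4 different libraries, the order was turned over, with 11.2% at 0, 12.4% at 4 and 29.1% at 2. At 21 to 50 bp a neighbour was covered in the same library in 79.1% of cases, against 42.6% in another library, so that part of the stretches joined different reads. The share of uniform stretches was 42.5% over libraries (41.8 to 43.1%) and did not differ by group beyond its spread, with 42.3% ± 0.667 in control and 42.7% ± 0.365 in butyrate (SD, n = 3 each).

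Windows of the same level with fewer CpGs were uniform less often, in 36.7% of stretches with 16 to 30 CpGs and in 32.9% with 6 to 15 CpGs. The differences of 5.79 ± 0.791 and 9.64 ± 0.392 points again had the same sign in 6 of 6 libraries (two-sided exact sign-flip permutation test, p = 0.0313 each; 4 such tests were made, with equal p). Here too the spread between windows was not measured by the test. Between libraries the shares were 23.5, 23.0 and 19.5%. The stretches were also shorter where CpGs were denser, with a median span of 25 bp against 35 and 41 bp. The part of the span in these differences was not tested.

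**Figure D2:**
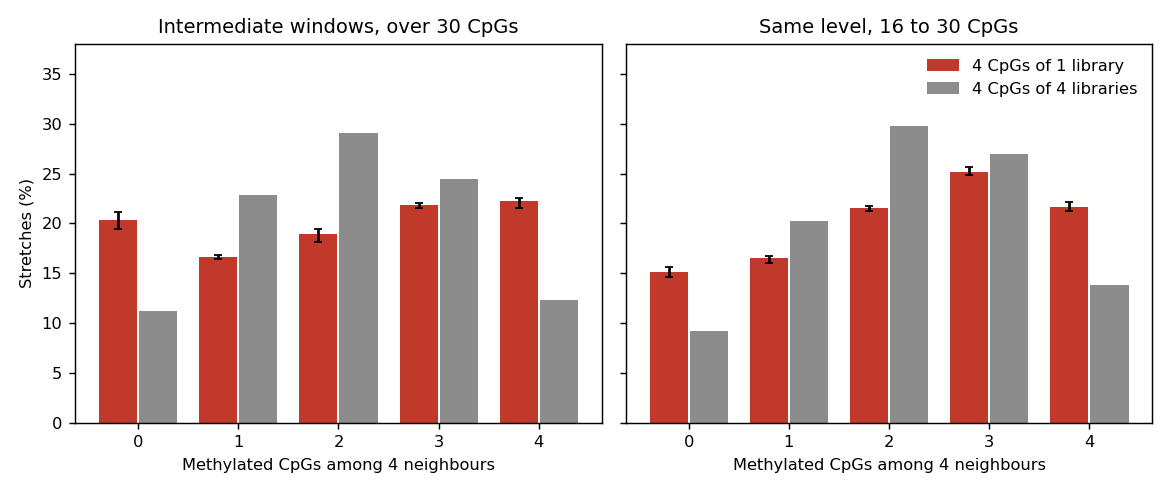
Share of stretches of 4 neighbouring CpGs (within 60 bp, 1 strand, each CpG read once) by the number of methylated CpGs, for intermediate windows (left) and windows of the same level with 16 to 30 CpGs (right). Red bars take all 4 CpGs from 1 library (pooled over libraries, with whiskers from the lowest to the highest library) and grey bars take them from 4 libraries; the red bars at 0 and 4 (20.3% and 22.2%, left) stand above the grey ones (11.2% and 12.4%).

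The levels of single CpGs were also mixed. Among 38803 CpGs of intermediate windows with at least 6 pooled reads, 17.2% were under 20%, 62.0% were from 20% to 80%, and 20.8% were over 80%. Windows of the same level with fewer CpGs were close to this. Their shares were 17.6, 58.1 and 24.2% with 16 to 30 CpGs, and 16.3, 60.3 and 23.5% with 6 to 15 CpGs. In windows under 35%, 94.5% of CpGs were under 20%, and in windows over 65%, 75.8% were over 80%, which follows in part from their choice by level. With as few as 6 reads, counting error can move a CpG past these limits, and its part was not tested. Of 1600 windows with at least 10 such CpGs, 134 (8.38%) had at least 25% of them at each extreme, and 129 (8.06%) had at most 10% at either extreme. The remaining windows met neither condition.

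The windows were set into methylated surroundings. The pooled level was 56.3% in the window to the left and 57.1% in the window to the right, and reached 66.3% and 66.5% at 5 kb. The CpG count fell at the same time, from a median of 35 to 22 and 21 in the adjacent windows and to 12 at 5 kb. Around the dense windows under 35%, by contrast, the level rose from 9.38% and 8.99% in the adjacent windows to 57.7% and 58.4% at 5 kb, and the CpG count fell from 43 to 5. At 5 kb this contrast was one of pooled reads, since the median level of a window was 78.3% and 77.4% around the intermediate windows and 78.6% on both sides of those under 35%. The pooled 66.3% and 66.5% were also close to the level of all autosomal windows (66.0% in control and 66.6% in butyrate). The surroundings of the intermediate windows thus kept more CpGs (median of 12 against 5 at 5 kb) and were close in this to those of windows over 65% (median of 14). In total, 54.4% of the intermediate windows had no dense neighbour, against 31.3% of those under 35% and 59.5% of those over 65%.

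**Figure D3:**
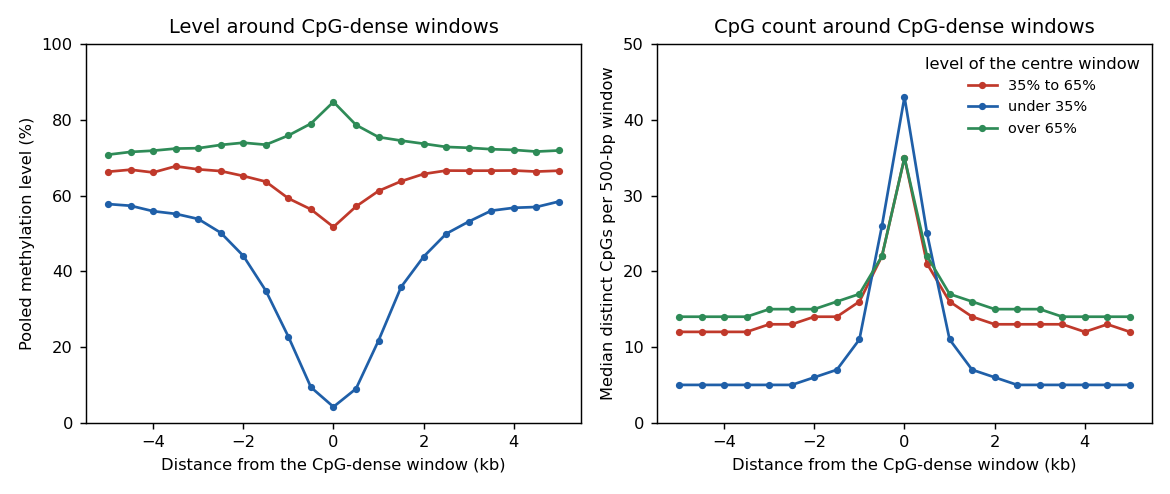
Pooled methylation level (left, %) and median number of distinct CpGs per 500-bp window (right) against the distance from a CpG-dense window in kb, for dense windows of 35% to 65% (red), under 35% (blue) and over 65% (green). The red line rises from 51.7% to about 66% within 5 kb, and the CpG count of the red windows falls to 12, against 5 for blue and 14 for green.

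Of the 1903 windows with at least 10 pooled reads in both neighbours, 255 (13.4%) were borders, with 1 neighbour under 20% and the other over 80%. A further 123 (6.46%) lay between neighbours that were both over 80%, 131 (6.88%) between neighbours that were themselves at 35% to 65%, and 7 (0.368%) between neighbours under 20%. The remaining 1387 had any other pair of neighbours. Borders made up 3.96% of the dense windows under 35% and 1.56% of those over 65%.

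Within borders the level fell towards the unmethylated side. In 235 of them both 250-bp parts had at least 10 reads in each group, and the part next to the methylated neighbour was higher in 221 in control and in 227 in butyrate, by a median of 40.6 and 43.2 percentage points. The windows between intermediate neighbours were flatter, with a median absolute difference of 16.3 points in control (113 windows). The excess of pairs in the same state within libraries over pairs between libraries was 15.2 points there (13.3 to 16.2), 10.2 points (8.89 to 12.3) between methylated neighbours and 7.46 points (5.25 to 9.18) at borders. With any other pair of neighbours it was 11.4 points (10.7 to 12.4). Where a neighbour had under 10 pooled reads it was 15.4 points (10.9 to 18.8), and between neighbours under 20% it was 5.66 points (-6.40 to 14.4). Stretches of 4 CpGs were uniform in 43.5% within and 18.7% between libraries where both neighbours were intermediate, in 39.7% and 25.5% between methylated neighbours, and in 44.7% and 30.6% at borders. These are descriptions over windows of the same libraries, with no test.

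The direction of the gradient inside a window was repeated between treatments. Over 1786 windows, the level of the left minus that of the right 250 bp had a Pearson r of 0.81 and a Spearman rho of 0.80 between control and butyrate, across windows that share position and base composition. The median absolute difference was 24.4 points in control and 24.9 in butyrate. The sign was the same in both groups in 80.5% of the windows. The difference exceeded 40 points in 455 windows (25.5%) in control, and 436 of these had the same sign in butyrate. It was under 10 points in 419 windows (23.5%) in control and in both groups in 159. Differences over 40 points were found in 1.75% of the dense windows under 35% and in 1.60% of those over 65%, which have less room for them.

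**Figure D4:**
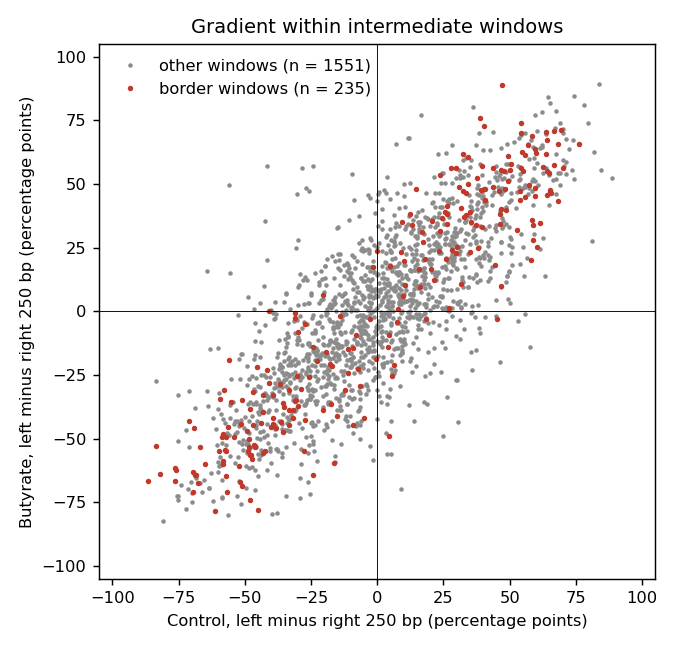
Level of the left minus the right 250 bp of each intermediate window in percentage points, in the pooled control libraries (horizontal axis) and the pooled butyrate libraries (vertical axis). Red points are the 235 border windows and grey points the other 1551; the points follow the diagonal, and 436 of the 455 windows beyond 40 points in control have the same sign in butyrate.

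The windows gathered at 1 end of the chromosomes. In total, 897 of them (44.6%) lay in the last 5 Mb of a chromosome as numbered in the assembly, and 143 (7.12%) in the first 5 Mb. Of all autosomal windows, 6.36% and 5.71% lay there, and of dense windows 12.7% and 6.02% (under 35%) and 50.7% and 8.24% (over 65%). For windows of the same level it was 33.7% and 12.3% with 16 to 30 CpGs, and 12.8% and 8.05% with 6 to 15 CpGs. The share of dense windows that were intermediate fell from 9.65% in the last 1 Mb to 9.13% at 1 to 2 Mb, 6.71% at 2 to 5 Mb, 4.61% at 5 to 10 Mb and 3.33% beyond 10 Mb. The share over 65% fell beside it, from 59.5% to 17.3%.

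The short chromosome 25 had the highest density with 126 windows (2.94 per Mb), followed by chromosome 18 with 140 (2.12 per Mb), and chromosomes 1 and 28 the lowest with 38 and 14 windows (0.240 and 0.302 per Mb). As a share of dense windows the range was narrower, from 2.88% on chromosome 28 to 6.45% on chromosome 22. Most windows stood alone. Of 1469 intervals of 50 kb with a member of the class, 1118 had 1 and 109 had 3 or more, and these 109 held 407 windows (20.3%).

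Runs of consecutive intermediate windows were short, with 1804 single windows, 95 runs of 2 and 5 runs of 3. The run of 3 with the most reads covered chromosome 19, positions 23657501 to 23659000, with 44, 66 and 61 CpGs. Its pooled levels were 37.7, 44.2 and 55.8%, between a left neighbour of 65.1% and a right neighbour of 14%. In the middle window the levels were 53.4, 48.4 and 45.6% in control and 49.4, 41.7 and 30.9% in butyrate, and the groups overlapped. The runs on chromosome 18, positions 63686501 to 63688000, and on chromosome 19, positions 63940501 to 63942000, had pooled levels of 40.9, 55.1 and 45.9% and of 51.8, 41.3 and 60.3%. At 63940501 on chromosome 19 the levels were 94.1, 49.3 and 0% in control and 73.8, 67.3 and 42.3% in butyrate. This window passed the logistic regression described below (24.2 points, q = 0.0319), with overlapping groups. On chromosome 18, butyrate replicate 1 had no read at 63687001 and control replicate 3 none at 63687501.

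The question of the treatment was whether butyrate moved these levels. Over all intermediate windows the control level was 51.7, 51.4 and 51.8%, and the butyrate level 51.8, 51.6 and 51.9%, by replicate number. The groups overlapped. The means were 51.7% ± 0.187 and 51.8% ± 0.179 (SD, n = 3 each), and butyrate minus control was 0.113 percentage points (two-sided exact permutation test, p = 0.5). With 3 libraries against 3 the smallest p of this test is 0.1.

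The result depended on where the windows start and on which CpGs entered. With all windows shifted by 250 bp and chosen anew (2098 windows), the difference was 0.725 points, and the groups did not overlap (p = 0.1 in the same exact permutation test). With CpG rows covered in all 6 libraries alone, it was 0.625 points and the groups were again separate (p = 0.1 in the same exact test). With over 40 CpGs (499 windows) it was -0.583 points (p = 0.3 in the same exact test). No direction can therefore be given for the class.

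**Figure D5:**
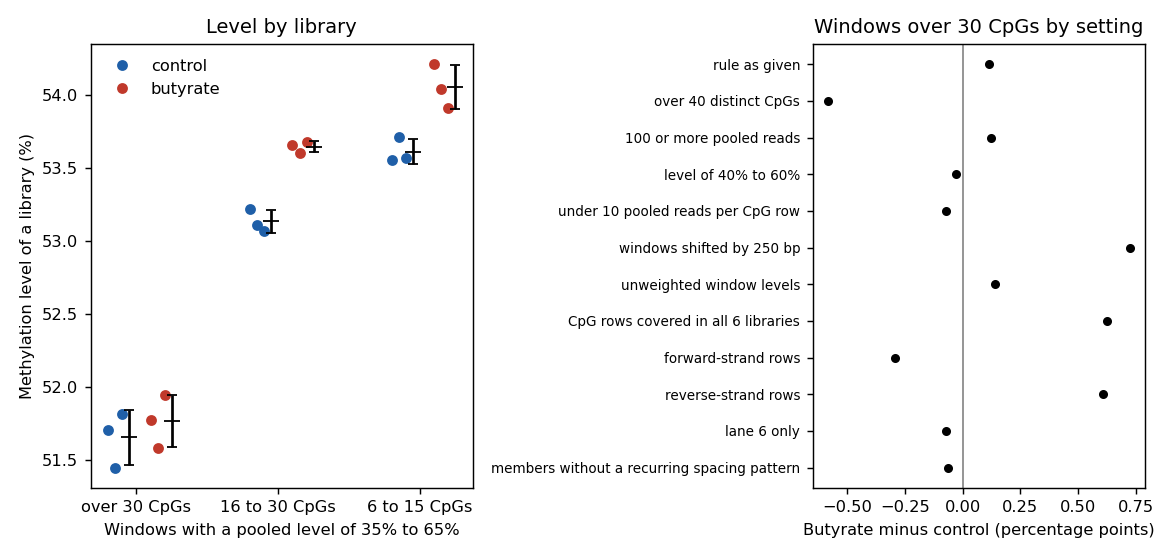
Left, methylation level of each library (%) in windows with a pooled level of 35% to 65%, by the number of CpGs, for control (blue) and butyrate (red), with the mean and SD of 3 libraries in black; the axis does not start at 0. Right, butyrate minus control in percentage points for the windows over 30 CpGs under each setting, from -0.583 to 0.725; groups overlap at 51.4 to 51.9% on the left.

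Over all autosomal windows the level was higher in butyrate by 0.585 points without overlap, and the difference of the intermediate windows minus that of all windows was -0.471 points, also without overlap (two-sided exact permutation tests, p = 0.1 each). With windows shifted by 250 bp, however, the intermediate windows differed by 0.725 points, more than the 0.585 points of all windows. The sign of this contrast thus also depended on where the windows start. Windows of the same level with 16 to 30 CpGs (21622 windows) had 53.1% ± 0.0772 in control and 53.6% ± 0.0387 in butyrate, a difference of 0.514 points without overlap (two-sided exact permutation test, p = 0.1), and those with 6 to 15 CpGs (81616 windows) differed by 0.444 points (p = 0.1 in the same exact test). Dense windows over 65% differed by 0.312 points and those under 35%, where the groups overlapped, by 0.0193 points (two-sided exact permutation tests, p = 0.1 and p = 1). The difference of the intermediate windows was smaller than that of the windows with 16 to 30 CpGs by -0.401 points (p = 0.1 in an exact permutation test of that contrast, two-sided, no overlap), but larger by 0.308 points with the shifted windows (p = 0.6 in the same exact test). Against windows with 6 to 15 CpGs it differed by -0.331 points, against windows over 65% by -0.199 points, and against windows under 35% by 0.0939 points (two-sided exact permutation tests, p = 0.2, p = 0.3 and p = 0.5).

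The border windows were lower in butyrate in the windows counted from position 1, with 49.8, 49.0 and 50.4% in control and 48.7, 47.8 and 48.1% in butyrate. The groups did not overlap, and the difference was -1.58 points (49.8% ± 0.697 and 48.2% ± 0.456, SD, n = 3 each; two-sided exact permutation test, p = 0.1, Benjamini-Hochberg adjusted p = 0.25 over 5 types of neighbours). With windows shifted by 250 bp, however, 251 borders were 1.73 points higher in butyrate (p = 0.1 in the same exact test). Among the 173 borders that reached 10 reads in each library, 92 had a lower level in butyrate. Windows with both neighbours over 80% differed by 0.204 points, and those between intermediate neighbours by -0.679 points (two-sided exact permutation tests, p = 0.8 each). The 1387 windows with any other pair of neighbours were 0.397 points higher in butyrate, also without overlap (p = 0.1 in the same exact permutation test, adjusted p = 0.25).

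Single windows were tested by logistic regression over all 98728 autosomal windows with at least 10 reads in every library, with a Benjamini-Hochberg q under 0.05 and a pooled difference over 10 percentage points as the threshold. Of the 1343 intermediate windows tested, 75 passed (5.58%), 33 higher and 42 lower in butyrate. The share over all windows tested was 0.53%, with 0.278% higher and 0.252% lower. It was 0.700% and 0.623% in dense windows under 35% and over 65%, 1.48% in windows of the same level with 16 to 30 CpGs and 0.581% with 6 to 15 CpGs. This regression does not take the spread between replicates into account (chi-square over degrees of freedom of 2.12 and 2.04, as given above), and the part of that spread in the larger share was not tested. The part of the choice by pooled level, which can bring in windows that differ between libraries, was not tested either.

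With tests that take the spread into account, no window of any class passed. The quasi-binomial F test and limma called 0 of the 1343 windows and 0 of all 98728, and the smallest limma adjusted p was 0.909. A count of 0 does not show that the levels were equal. At an unadjusted p under 0.05, limma gave 93 intermediate windows (6.92%) against 5.42% of all windows, and the quasi-binomial F test gave 45 (3.35%) against 1.19%. Logistic regression gave 378 (28.1%) against 10.4%. The groups did not overlap in 143 of the 1343 windows (10.6%, 67 higher and 76 lower in butyrate), against 9.32% of all windows tested. The count of separated windows was thus near the background.

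Of the 75 intermediate windows that passed logistic regression, 44 had no overlap of the groups. How many of the 523 windows called over all windows tested had none was not counted. Those with the smallest q among the 44 are described in full. On chromosome 13, positions 58047001 to 58047500 (50 CpGs, 37 to 103 reads per library), the control levels were 51, 66.7 and 45.9%, and the butyrate levels 10.7, 44.8 and 4.55%, each in the order of the replicate numbers. All 3 controls were higher, although butyrate replicate 2 came close to control replicate 3. The pooled difference was -34.7 points (q = 6.9e-11 in logistic regression, limma adjusted p = 0.909), and -47.9 to -27.8 points with any 1 library left out.

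On chromosome 19, positions 62917001 to 62917500 (37 CpGs, 21 to 46 reads), the levels were 62.5, 71.0 and 73.9% in control and 3.23, 32.6 and 9.52% in butyrate. Both neighbours were methylated, at 77.9% and 73.8%. The pooled difference was -49.7 points (q = 1.22e-08 in logistic regression, limma adjusted p = 0.909). On chromosome 11, positions 35029501 to 35030000 (43 CpGs, 18 to 86 reads), the levels were 69.8, 52.3 and 54.7% in control and 22.2, 35.3 and 2.78% in butyrate, with a pooled difference of -38.2 points that was -24.6 points without butyrate replicate 3.

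Of the windows that were higher in butyrate, the first lay on chromosome 13, positions 58033501 to 58034000 (31 CpGs, 13 to 42 reads). Its levels were 16.7, 15.8 and 15.4% in control and 76.2, 61.1 and 38.1% in butyrate, a pooled difference of 47.0 points (q = 7.15e-06 in logistic regression, limma adjusted p = 0.909). The controls lay close together and the butyrate libraries spread widely. On chromosome 24, positions 61275001 to 61275500 (72 CpGs, 22 to 63 reads), the levels were 44.4, 12.2 and 0% in control and 83.9, 57.7 and 45.5% in butyrate and the nearest libraries of the groups almost met. The pooled difference was 33.6 points, and it was 24.0 points without butyrate replicate 1 and 50.5 points without control replicate 1. On chromosome 26, positions 51602001 to 51602500 (36 CpGs, 34 to 69 reads), the levels were 38.2, 45.7 and 55.1% in control and 64.9, 75.4 and 87.3% in butyrate, between neighbours of 28.9% and 82.9%, with a pooled difference of 29.7 points.

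The pair on chromosome 13 belonged to the densest group of intermediate windows on the autosomes, counted in fixed intervals of 50 kb, which is described here after its values were seen. The interval of 50 kb from 58000001 to 58050000 held 8 of them among 11 dense windows (72.7%), the highest number of any such interval, and 2 more followed at 58056001 and 58056501. The called windows lay 13.5 kb apart and moved in opposite directions. Within 5 kb after the window that rose, 3 further windows had higher mean levels in butyrate, with overlapping groups. At 58034501 the levels were 46.7, 9.09 and 25% in control and 81.0 and 37.9% in butyrate replicates 2 and 3 (replicate 1 had no read), and at 58038001 they were 45.5, 57.1 and 76.2% in control and 100, 100 and 45.5% in butyrate (2 or more reads each). At 58036501 the levels were 37.5, 11.7 and 8.70% in control and 0, 47.1 and 88.9% in butyrate (16 or more reads each), and at 58048001 they were 52.5, 71.4 and 22.2% in control and 29.6, 39.5 and 52.8% in butyrate (14 or more reads each). Near the window that fell, the directions were mixed, with mean differences of -2.72 points at 58046501, -8.09 at 58048001, 26.4 at 58049001 and -33.1 at 58056001. Of the 9 other windows within 25 kb of the window that fell, the groups overlapped or could not be compared in 8. The next intervals held 7 of 14 dense windows (chromosome 21, 69400001 to 69450000) and 7 of 34 (chromosome 22, 59500001 to 59550000).

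Both strands gave an intermediate level. In CpGs with both strands seen, the level was 51.7% ± 0.441 on the forward and 52.8% ± 0.478 on the reverse strand (SD, n = 6), and forward minus reverse lay between -2.15 and -0.274 points over the libraries. Butyrate minus control was -0.293 points on the forward and 0.608 points on the reverse strand (two-sided exact permutation tests, p = 0.5 and p = 0.2).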

How the data were processed

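Per the methods of the study and the labels, the authors trimmed the WGBS reads with Trim Galore 0.4.1, mapped them to UMD3.1.1 (UMD3.1 in the submitters' processing notes) with bowtie2 and called cytosines with Bismark. The deposited values were raw counts of methylated and unmethylated reads for each CpG cytosine, in files without a header and not normalized. The third column was taken as methylated, because its share was low in CpG-dense windows. No source used here states how duplicates were treated, how read ends were clipped or the conversion rate. The low-input kit primes at random on converted strands, so errors at read ends and duplicates can affect the counts, and the labels and the methods of the study differ on read length and on single-end or paired-end reads.

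Rows at adjacent positions were taken as the 2 strands of a CpG, from the left. Where CpGs follow each other directly and a strand was not read, rows can be paired wrongly, which can change the number of distinct CpGs and the strand of a row. Counts were summed in windows of 500 bp from position 1. A library level is its methylated reads over all its reads, so that deep windows weigh more. Groups and replicate numbers are those of the labels. Levels were compared by two-sided exact permutation tests over all 10 assignments of 3 and 3 libraries. For single windows, 98728 that reached 10 reads per library were tested by logistic regression with a likelihood-ratio test and Benjamini-Hochberg adjustment, at the thresholds of the study (q under 0.05, over 10 percentage points). All CpG rows entered, since the minimum of 10 reads per cytosine in the study leaves 32 of the intermediate windows. A quasi-binomial F test and limma 3.58.1 on log2((methylated + 1)/(unmethylated + 1)) were alternatives. The tests were also run on simulated binomial counts without spread between replicates, which cannot show their error rate at the spread seen here.

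Named windows were the 6 deepest with at least 20 reads and 25% to 75% in every library, the 3 with the smallest q in each direction among called windows without overlap, the 3 longest runs (ties by reads), and the deepest windows at each limit of level and of CpG number. Windows, lists and tests were chosen with earlier results of these data known. Windows near imprinted, germline and protocadherin genes were not analysed here, since the gene table used has another assembly, and no sequence is printed for the same reason. Types of neighbours, recurring spacings, sparser comparison windows, stretches of 4 CpGs and clusters were added after seeing the data. Software was R 4.3.3, Python 3.11.15, pandas 2.3.3, NumPy 2.4.6, SciPy 1.17.1 and Matplotlib 3.10.9.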

Additional observations from a re-analysis of the deposited data

Results flagged for a closer look

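The butyrate difference of border windows and that of all other intermediate windows had opposite signs, which was noticed because the libraries of the groups did not overlap in either set. Borders were 1.58 percentage points lower in butyrate, and the other 1754 windows were 0.353 points higher (51.9% ± 0.116 in control and 52.3% ± 0.190 in butyrate, SD, n = 3 each). The level of borders minus that of the others was -2.17 ± 0.592 points in control and -4.10 ± 0.464 in butyrate, so that butyrate minus control was -1.93 points. No test of this contrast is given, since it was picked for the separation of the libraries in both sets. The comparison was added after seeing the data and is 1 of 5 types of neighbours. With windows shifted by 250 bp the borders were 1.73 points higher in butyrate.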

How the results depend on the processing

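Butyrate minus control over the intermediate windows was 0.113 points and turned negative with over 40 CpGs (-0.583), a level of 40% to 60% (-0.0263), under 10 reads per CpG row (-0.0733), the forward strand (-0.293; 0.608 on the reverse strand), lane 6 (-0.0698, no test) and without recurring spacings (-0.0628, added after seeing the data). It rose to 0.625 with CpG rows covered in all 6 libraries and 0.725 with shifted windows (exact permutation test, p = 0.1 each). With any 1 library left out it was 0.00972 to 0.205. Against windows under 35% the contrast of 0.0939 points turned negative with over 40 CpGs (-0.570), 40% to 60% (-0.0434), under 10 reads per row (-0.0971) and lane 6 (-0.0621), rose to 0.737 with shifted windows (exact permutation test, p = 0.1), and was -0.0111 to 0.177 with 1 library left out, negative without control replicate 2 (-0.00593) or butyrate replicate 3. Shifted windows turned the contrasts with windows over 65% (0.326; -0.333 to -0.111 with 1 library left out), with 16 to 30 CpGs (0.308; -0.493 to -0.291), with 6 to 15 CpGs (0.354; -0.491 to -0.230) and the borders (1.73; -1.94 to -1.24). The cause was not tested. Other settings kept the sign of these results, but the contrast of -0.199 with windows over 65% became -0.898 with over 40 CpGs, -0.350 with 40% to 60%, -0.443 under 10 reads per row and -0.355 on lane 6, that with 6 to 15 CpGs became -0.501 on lane 6, and the borders were at -0.741 points for neighbours under 30% and over 70% and at -1.01 unweighted (exact permutation test, p = 0.2 each).

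The 75 windows passing logistic regression became 35 of 633 and 20 of 281 with at least 20 and 30 reads per library (0.670% and 0.554% of all windows tested), 1 of 32 with 10 reads per CpG row (0.687%), 0 with the quasi-binomial F test and 0 with limma. They were 57 with lane as a factor (0.383% of all windows) and 70 over 20 points (0.391%). With 1 library left out they were 72 to 88, for which the share over all windows was not counted. The butyrate difference in pairs of the same state stayed positive under all settings tried (0.260 to 0.579 points with 1 library left out), and the share of windows found again stayed at 62.7% to 63.3%.

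Samples of the same replicate number did not deviate together over the intermediate windows (r of -0.051, -0.0037 and -0.026 for replicates 1, 2 and 3). Whether they shared any handling was not tested. With a replicate block the level difference was 0.113 points (exact sign-flip test, p = 0.25, the smallest it allows), the borders were at -1.58, the contrasts with 16 to 30 and 6 to 15 CpGs at -0.401 and -0.331 points, and 85 windows were called (6.33%, against 0.604% of all windows tested).

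Depth limits single windows. At a median of 30 to 42 counts per window and library, many of them from the same read, a level carries an error of several points, and replicates differed by a median SD of 13.3 points. All libraries come from 1 calf, and lane 5 held butyrate libraries only.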

Other observations

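In the 106 intermediate windows with under 10 pooled reads in at least 1 neighbour, pairs of CpGs up to 20 bp apart had the same state in 69.1, 67.2 and 70.7% of cases in control and in 70.8, 71.3 and 74.3% in butyrate. The groups did not overlap (69.0% ± 1.75 and 72.1% ± 1.91, SD, n = 3 each; two-sided exact permutation test, p = 0.1, Benjamini-Hochberg adjusted p = 0.6 over 6 types of neighbours, of which no other was separated). In dense windows over 65% the same measure was 83.3% ± 0.0377 in control and 83.8% ± 0.0802 in butyrate, also without overlap (two-sided exact permutation test, p = 0.1). The level of these windows was higher in butyrate as well, by 0.312 points without overlap, and its part in the share of such pairs was not tested.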
